A study of Mus musculus with 9 samples.

Results

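The genes described here handle heme and iron in macrophages or mark the iron-recycling macrophages of the splenic red pulp: Hmox1, Slc40a1, Spic, Vcam1, Cd163, Cd5l, Fth1, Ftl1, Tfrc and Slc11a1. They were taken by symbol from both deposited tables, in which each symbol had 1 row, and make up 10 of 46072 genes (26108 of them above 0 in at least 1 library). RNA was sequenced from splenic monocytes of female C57BL/6 mice aged 8 to 10 weeks, with 3 mice and 3 libraries in each of 3 groups. Gavage lasted 6 days in all groups, and 6 to 8 days of rest without antibiotic followed. Con mice had water. Van mice had a daily 2 mg of vancomycin, an antibiotic that hardly leaves the gut, in 2 gavages of 1 mg. VanLip mice had the same vancomycin plus L654, injected retro-orbitally on days 7, 9 and 11. L654 is a lipopeptide of Bacteroidota that the receptor TLR2 recognises, and the study purified it from Porphyromonas gingivalis. The study's account and the labels differ in the exact days of rest and injection, and those of the labels are given. The labels name no vehicle injection for Con or Van mice, so the injection and L654 cannot be told apart. Monocytes were enriched with a magnetic kit that removes other cells by antibody, which need not remove every macrophage.

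The Con and Van libraries held 16151385 to 23018927 fragments and the VanLip libraries 42625868 to 46180176. The labels give reads of 100 bases for all libraries. The size of 1 read, inferred from the commonest low count, corresponded to 100 bases in Con and Van but to 150 bases in VanLip, and the fragment numbers rest on that inference. The inferred read length and the depth coincide with the VanLip group, and their part in every VanLip comparison cannot be told apart from that of L654. Monocyte markers were abundant in every library, with a summed FPKM over 14 genes of 11700 to 14800, led by Lyz2 and Nr4a1, and the neutrophil gene Ly6g was listed at 0 throughout. Summed FPKM was 1.88 to 11.3 over 6 neutrophil markers (led by S100a8 and S100a9), 5.93 to 9.67 over 6 T and NK cell markers (Klrd1 and Cd8a), 24.1 to 46.6 over 5 dendritic cell markers (Cd209a and Flt3), 5.84 to 18.6 over 5 genes of cycling cells (Top2a and Mki67), 251 to 393 over 5 B cell markers (mostly Ighm, then Cd79b) and 28.3 to 133 over 3 marginal zone macrophage markers (Marco and Siglec1), with the upper end set by VanLip 1. Markers of red pulp macrophages outside the 10 genes were also abundant, at a summed FPKM over 11 genes of 996 to 1610 (led by C1qa and C1qc), so the libraries of cells labelled as monocytes also held RNA of genes that mark these macrophages. In such bulk libraries, fewer cells of a type and less RNA per cell cannot be told apart.

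Red pulp macrophages engulf aged red cells, break the heme of hemoglobin down with heme oxygenase 1 and release the iron to the blood through ferroportin, or store it in ferritin. Heme induces the transcription factor SPIC, which these macrophages need and which acts on Vcam1. Much of the iron control over ferritin, ferroportin and the transferrin receptor does not act on transcription: iron regulatory proteins bind a hairpin in the messenger RNA, the iron-responsive element, and block translation when it lies in the 5′ untranslated region or stabilise the RNA when it lies in the 3′ untranslated region. A change in protein made through a 5′ element would not be seen in the RNA levels given here.

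The elements are shown because they are the sequences through which this control is known to act. A search of GENCODE release M21 transcripts on GRCm38 for a 27-base hairpin, with a loop of CAGTGN between 5 paired bases, a bulged C and a lower stem with at least 3 pairs, found it in the untranslated regions of 48 of 22527 protein-coding genes (0.213%), and in 4 of the 10 genes. No match says only that this pattern is not in the transcripts searched. The pattern was written from textbook knowledge of the element after the data had been seen. Letters are those of the gene's strand in the reference genome, 5′ to 3′, with the 6 loop bases in capitals.
Fth1, 5′ untranslated region, chr19:9982733-9982759, plus strand: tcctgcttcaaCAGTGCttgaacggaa
Ftl1, 5′ untranslated region, chr7:45459780-45459806, minus strand: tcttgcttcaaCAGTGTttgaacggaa
Slc40a1, 5′ untranslated region, chr1:45925466-45925492, minus strand: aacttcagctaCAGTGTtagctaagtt
Tfrc, 3′ untranslated region, chr16:32631220-32631246, plus strand: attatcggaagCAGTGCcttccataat
Tfrc, 3′ untranslated region, chr16:32631599-32631625, plus strand: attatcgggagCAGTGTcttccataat
Tfrc, 3′ untranslated region, chr16:32631664-32631690, plus strand: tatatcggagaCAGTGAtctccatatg
Tfrc, 3′ untranslated region, chr16:32631711-32631737, plus strand: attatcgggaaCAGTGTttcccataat

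The 10 genes spanned a wide range of levels. FPKM, fragments per kilobase of transcript relative to all mapped fragments, corrects for transcript length, so levels can be compared between genes on this scale. Both ferritin subunits stood at the top: Ftl1, the light chain, lay between 2876 and 3884 FPKM and ranked 3 to 5 among all genes of a library, and Fth1, the heavy chain that oxidises iron for storage, lay between 1663 and 2394 and ranked 8 to 17. Hmox1, heme oxygenase 1, followed at 495.7 to 764.4 FPKM (rank 53 to 108).

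Slc11a1, a metal transporter of the phagosome membrane, lay at 159.2 to 221.3 FPKM, Vcam1, an adhesion molecule, at 129.9 to 238.1, and Slc40a1, which encodes ferroportin, at 111.4 to 191.4. Cd5l, a secreted protein of tissue macrophages that inhibits apoptosis, lay at 57.84 to 98.17 FPKM, Spic at 33.39 to 57.63, and Cd163, the receptor for hemoglobin bound to haptoglobin, at 11.66 to 23.14. Tfrc, the transferrin receptor through which cells take up iron, was lowest at 2.364 to 4.203 FPKM (rank 8199 to 9682). Neighbours in this order were in the same order in 9 of 9 libraries, except that Slc11a1 was above Vcam1 in 6 of 9 and Vcam1 above Slc40a1 in 7 of 9. The ranges of those neighbours overlapped, and their order is not set beyond the spread.

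**Figure D1:**
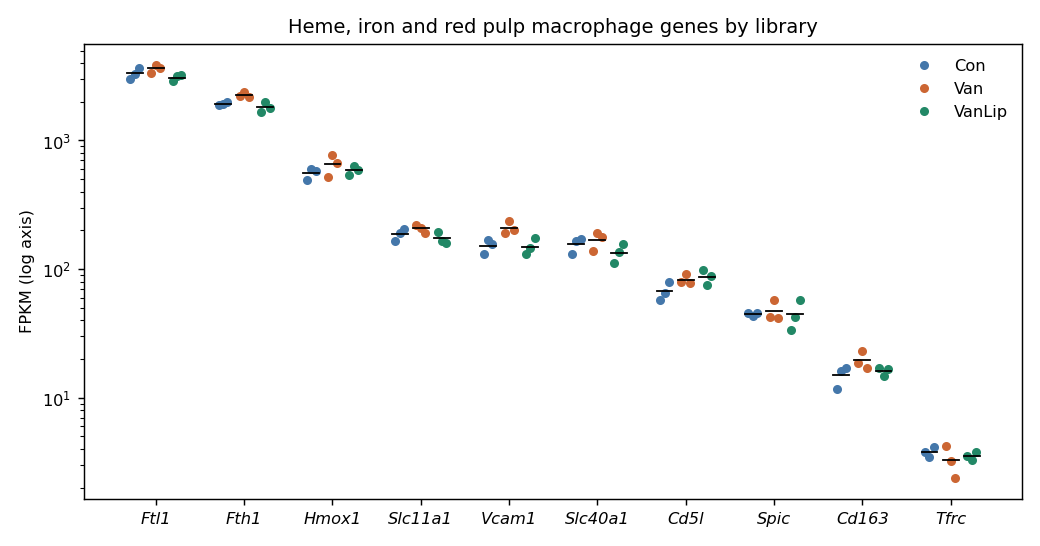
FPKM of each gene (log axis) in the 9 libraries, coloured by group, with a bar at each group's mean (n = 3). Ftl1 and Fth1 sit at or above 1663 FPKM and Tfrc between 2.364 and 4.203, and the groups lie close together beside the distance between most genes.

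The first comparison asks how these genes differed after vancomycin from those after water, with the same rest in both groups. Vcam1 and Fth1 were higher in Van than in Con, which is 2 of the 10 genes at a DESeq2 adjusted p of 0.05 or under, beside 4.34% of the 18516 genes tested (2.27% higher and 2.06% lower in Van). With edgeR's quasi-likelihood test 0 of the 10 passed, beside 1.21% of 16867 genes. At an unadjusted DESeq2 p under 0.05 there were 4 of 10 (Vcam1, Cd163, Cd5l and Fth1), beside 14.9% of all genes. Groups did not overlap for 3 of 10 (Vcam1, Cd163 and Fth1), beside 20.8% of all genes. The median log2 fold change of the 10 genes was 0.16, and that of all genes tested -0.0065.

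The second comparison asks what remained of a difference from water once L654 had been given. In VanLip against Con 0 of 10 genes passed with either DESeq2 or edgeR, beside 6.67% of 16552 (2.98% higher and 3.69% lower in VanLip) and 1.78% of 16867 genes. One gene of the 10, Cd5l, had an unadjusted p under 0.05, beside 18.6% of all genes, and groups overlapped for all 10 genes, beside 23.5% of all genes without overlap. The median of the 10 was -0.07, beside 0.0085 for all genes tested.

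The third comparison asks what L654 altered in mice that had vancomycin. In VanLip against Van 3 of 10 genes, Vcam1, Fth1 and Ftl1, were lower in VanLip, beside 9.86% of 18025 genes called (5.28% lower and 4.58% higher in VanLip), and groups did not overlap for the same 3, beside 25.9% of all genes. With edgeR 2 of 10 passed, Vcam1 and Fth1, beside 5.07%. At an unadjusted p under 0.05 there were 5 of 10, beside 21% of all genes. The median of the 10 genes was -0.24, beside 0.01 for all genes tested. The 3 comparisons share libraries, so they are not separate evidence.

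**Figure D2:**
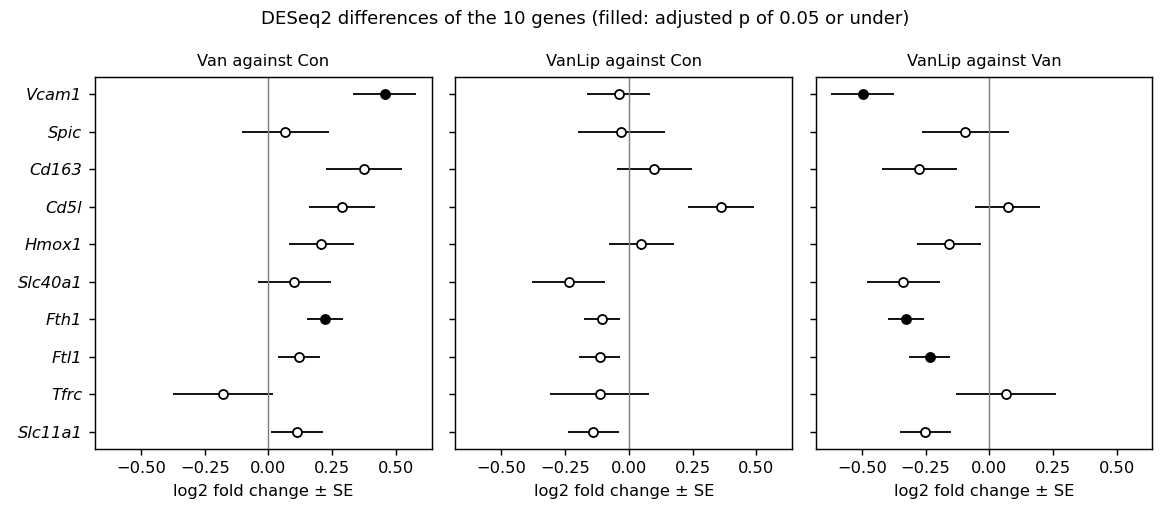
DESeq2 log2 fold change ± SE of the 10 genes in each comparison, with filled points at an adjusted p of 0.05 or under. Filled points are Vcam1 and Fth1 for Van against Con, none for VanLip against Con, and Vcam1, Fth1 and Ftl1 for VanLip against Van.

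Vcam1 (chr3:116109949-116129688 on GRCm38, overlapped on the other strand by Gm43109) showed the largest differences of the 10 genes in both comparisons with Van. Its normalized counts, the expected counts divided by each library's size factor, were 43790, 55302 and 50783 in Con, 62757, 76620 and 66286 in Van, and 42748, 46900 and 56122 in VanLip. All 3 Van libraries lay above the other 6. Van was 1.37-fold above Con (log2 0.46, SE 0.12, DESeq2 adjusted p = 0.0106, edgeR adjusted p = 0.111), and VanLip was at 0.709 of Van (log2 -0.50, SE 0.12, DESeq2 adjusted p = 0.00176, edgeR adjusted p = 0.0477). VanLip and Con overlapped, at a log2 difference of -0.04 with a 95% interval of -0.28 to 0.20. The difference of Van from Con lost its call without Con 1, Con 3 or Van 2, at DESeq2 adjusted p-values of 0.102, 0.0532 and 0.141, and both differences lost it in limma on log2 FPKM.

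Endothelial and stromal cells also make Vcam1. Of 8 genes listed as their markers, 6 stayed below 1 FPKM in every library, among them the endothelial genes Cdh5 at 0.128 to 0.283 and Kdr at 0.0835 to 0.295, and Pdgfrb lay at 0.696 to 1.49. The 8 genes went both ways, with 4 of 8 positive in Van against Con (median log2 -0.05) and 5 of 8 positive in VanLip against Van (median log2 0.23). The normalized counts of Kdr, though low, were also highest in Van, at 94, 63 and 91 in Con, 168, 119 and 132 in Van, and 47, 68 and 86 in VanLip (Van against Con log2 0.76, DESeq2 adjusted p = 0.221, and VanLip against Van log2 -1.06, DESeq2 adjusted p = 0.0156, edgeR adjusted p = 0.0695). All Van libraries lay above the others, as for Vcam1. The order of libraries was that of Vcam1 within VanLip and its reverse within Con and within Van. Pecam1, which monocytes also express, had normalized counts of 5077, 4036 and 4814 in Con, 13667, 9406 and 7594 in Van, and 5854, 7205 and 7045 in VanLip. It was thus highest in Van, as Vcam1 was, with a log2 fold change against Con of 1.14 (DESeq2 adjusted p = 1.88e-07, edgeR adjusted p = 0.0311) and of -0.61 for VanLip against Van (DESeq2 adjusted p = 0.0131, edgeR adjusted p = 0.0967). The summed FPKM of the 8 genes, most of it Pecam1, was 14.1 to 18.2 in Con, 26.2 to 46.2 in Van and 20.1 to 26.3 in VanLip. The part of endothelial or stromal RNA in the Vcam1 difference was not tested. Ccr2, the chemokine receptor of classical monocytes, lay the other way, at 60611, 60603 and 54555 in Con, 25361, 35493 and 37845 in Van, and 89509, 53107 and 60954 in VanLip (Van against Con log2 -0.83, DESeq2 adjusted p = 0.00048, edgeR adjusted p = 0.0784). VanLip was above Van for Ccr2 (log2 1.04, DESeq2 adjusted p = 7.38e-07, edgeR adjusted p = 0.0144), and 2 more of the 14 monocyte markers were called higher there, Ly6c2 (log2 0.39, DESeq2 adjusted p = 0.0262, edgeR adjusted p = 0.0966) and Cx3cr1 (log2 0.43, DESeq2 adjusted p = 0.00264, edgeR adjusted p = 0.0415). Of the 14 monocyte markers, 6 were positive in Van against Con (median log2 -0.05). Ccr2 alone was called there by DESeq2, beside 4.34% of all genes. In VanLip against Van 10 of 14 were positive (median log2 0.23), and the 3 called stand beside 9.86% of all genes. The part of a shift between kinds of monocyte or macrophage in the Vcam1 and Fth1 differences was not tested.

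Markers of B cells and dendritic cells also differed from Con. The summed FPKM of the 5 B cell markers was 335 to 393 in Con, 251 to 276 in Van and 257 to 320 in VanLip, and Ighm, the one B cell marker called, was lower in Van (log2 -0.52, DESeq2 adjusted p = 1.69e-05, edgeR adjusted p = 0.0337) and in VanLip (log2 -0.36, DESeq2 adjusted p = 0.00529, edgeR adjusted p = 0.0797). Of 5 dendritic cell markers, Xcr1 and Clec9a were called lower in Van and Xcr1 and Cd209a lower in VanLip, and Clec9a was called higher in VanLip than in Van. These were DESeq2 calls, of which edgeR kept Clec9a in Van. The neutrophil markers with an adjusted p had median log2 differences from Con of -1.10 in Van (5 genes) and -1.79 in VanLip (4 genes), where Ngp was called lower (log2 -1.94, DESeq2 adjusted p = 0.0373, edgeR adjusted p = 0.158), at a summed FPKM of 4.01 to 11.3 in Con, 1.88 to 10.5 in Van and 3 to 4.36 in VanLip. Marco, of the marginal zone macrophages, had normalized counts of 2843, 5637 and 4816 in Con, 5836, 7230 and 7157 in Van, and 22693, 5925 and 8688 in VanLip, with every Con library below the rest and VanLip 1 far above them, and it was not called (DESeq2 adjusted p-values of 0.718, 0.0754 and 0.369 in the 3 comparisons). The study's monocytes are defined as negative for CD45R, which marks B cells, for CD3e, which marks T cells, and for Ly-6G, which marks neutrophils. The part of these cells in the Vcam1 and Fth1 differences was not tested.

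Spic (chr10:88674772-88685015) did not follow Vcam1. Its normalized counts were 7805, 7368 and 7618 in Con, 7286, 9498 and 7074 in Van, and 5713, 6987 and 9640 in VanLip. The 3 groups overlapped, and the Con libraries lay far closer together than those of Van or VanLip. Van differed from Con by a log2 of 0.07 (95% interval -0.27 to 0.40, DESeq2 adjusted p = 0.948). VanLip differed by -0.03 from Con (-0.36 to 0.31, adjusted p = 0.962) and by -0.09 from Van (-0.43 to 0.24, adjusted p = 0.84).

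Cd163 (chr6:124304656-124330527) had normalized counts of 4987, 6889 and 7126 in Con, 7885, 9600 and 7157 in Van, and 7210, 6153 and 7002 in VanLip. Every Van library was above every Con library, though Van 3 only just. The log2 fold change of Van against Con was 0.37, with a 95% interval of 0.09 to 0.66, and it did not pass (DESeq2 adjusted p = 0.145, edgeR adjusted p = 0.266). VanLip lay between, at log2 0.10 from Con and -0.27 from Van, with DESeq2 adjusted p-values of 0.8 and 0.272.

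Cd5l (chr3:87357881-87371073) was the one red pulp gene whose mean was highest in VanLip. Its normalized counts were 11392, 12853 and 15143 in Con, 15563, 17437 and 15106 in Van, and 19141, 14316 and 17112 in VanLip. The Con library with the highest value overlapped both other groups. VanLip against Con gave a log2 fold change of 0.36 (SE 0.13, DESeq2 adjusted p = 0.0667, edgeR adjusted p = 0.161), and Van against Con gave 0.29 (DESeq2 adjusted p = 0.235). The first of these passed without Con 3 (adjusted p = 0.0122), without VanLip 2 (0.0104) or with TMM library sizes (0.0451).

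Hmox1 (chr8:75093621-75100589), whose product opens the heme ring, had normalized counts of 76583, 92123 and 87726 in Con, 79844, 113974 and 102211 in Van, and 81831, 95145 and 88359 in VanLip. The groups overlapped in every pair. Van differed from Con by a log2 of 0.21 (95% interval -0.04 to 0.46, DESeq2 adjusted p = 0.48). VanLip differed by 0.05 from Con and by -0.16 from Van (-0.41 to 0.09, adjusted p = 0.54). Without Van 1, the lowest Van library, the difference of Van from Con was 0.34 and passed (adjusted p = 0.0365).

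Slc40a1 (chr1:45908068-45926523), the only known exporter of iron from cells, had normalized counts of 42823, 53487 and 54132 in Con, 44838, 59798 and 56760 in Van, and 35795, 42736 and 49221 in VanLip. The VanLip values were low but overlapped those of both other groups. VanLip against Van gave a log2 fold change of -0.34 (SE 0.14, DESeq2 adjusted p = 0.123, edgeR adjusted p = 0.224), VanLip against Con -0.24 (adjusted p = 0.385), and Van against Con 0.10 (adjusted p = 0.868). Without Van 1 or without VanLip 3 the difference of VanLip from Van passed, at adjusted p-values of 0.03 and 0.0213.

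Of the ferritin subunits, Fth1 (chr19:9980598-9985098) differed in both comparisons with Van. Its normalized counts were 157456, 160316 and 161221 in Con, 183042, 193680 and 181731 in Van, and 137942, 161173 and 145640 in VanLip. Each Van library was above all others, and the Con libraries differed from each other by far less than the VanLip libraries did. Van was 1.17-fold above Con (log2 0.22, SE 0.07, DESeq2 adjusted p = 0.0415, edgeR adjusted p = 0.156), and this call was lost without any 1 of the Con or Van libraries, at adjusted p-values of 0.0789 to 0.275. In limma on quantile-normalized FPKM the difference of Van from Con was 0.46, with adjusted p-values of 0.0258 to 0.0706 over 3 settings. VanLip was at 0.796 of Van (log2 -0.33, SE 0.07, DESeq2 adjusted p = 0.000134, edgeR adjusted p = 0.0262), and this call held in DESeq2 without any 1 of the 9 libraries. VanLip against Con was at log2 -0.11 (95% interval -0.24 to 0.03), a sign that turned to 0.16 in limma.

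Ftl1 (chr7:45457944-45459884, which overlaps Gm22133 on its own strand and Gm10252 on the other) moved in the same order of group means by less. Its normalized counts were 276501, 304087 and 326245 in Con, 307194, 345723 and 332265 in Van, and 263543, 283429 and 290392 in VanLip. Van and VanLip did not overlap, while Con overlapped both. VanLip was at 0.85 of Van (log2 -0.23, SE 0.08, DESeq2 adjusted p = 0.0456, edgeR adjusted p = 0.134), close to the threshold, and Van against Con gave 0.12 (adjusted p = 0.558). In limma the log2 difference of VanLip from Van was -0.08 (adjusted p-values of 0.605 to 0.712), and with TMM library sizes it did not pass (adjusted p = 0.09). The call was also lost without Con 2, Van 2, Van 3, VanLip 1 or VanLip 2 (adjusted p-values of 0.0785 to 0.249) and when counts of the near-identical Ftl2, 1.92% to 2.68% of the pair's counts, were added to Ftl1 (adjusted p = 0.0508).

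Together the ferritin chains took 1.24% to 1.4% of the total FPKM of a library in Con, 1.43% to 1.59% in Van and 1.16% to 1.28% in VanLip, so that Van lay above both other groups in this share as well. The ratio of Ftl1 to Fth1 FPKM was 1.6 to 1.84 in Con, 1.53 to 1.66 in Van and 1.59 to 1.8 in VanLip, with all groups overlapping. Erythroid RNA lay above Con in both other groups. The summed FPKM of 8 erythroid markers was 99.9 to 203 in Con, 344 to 774 in Van and 279 to 1170 in VanLip. Of these markers 5 were called higher in Van and 8 in VanLip against Con with DESeq2, 0 and 5 with edgeR, and 0 of 8 between VanLip and Van with either. All 8 were nonetheless at a positive log2 difference in VanLip against Van (median 0.77), where both ferritin chains and Vcam1 were lower. The part of red cell RNA in the ferritin and Vcam1 differences was not tested.

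**Figure D3:**
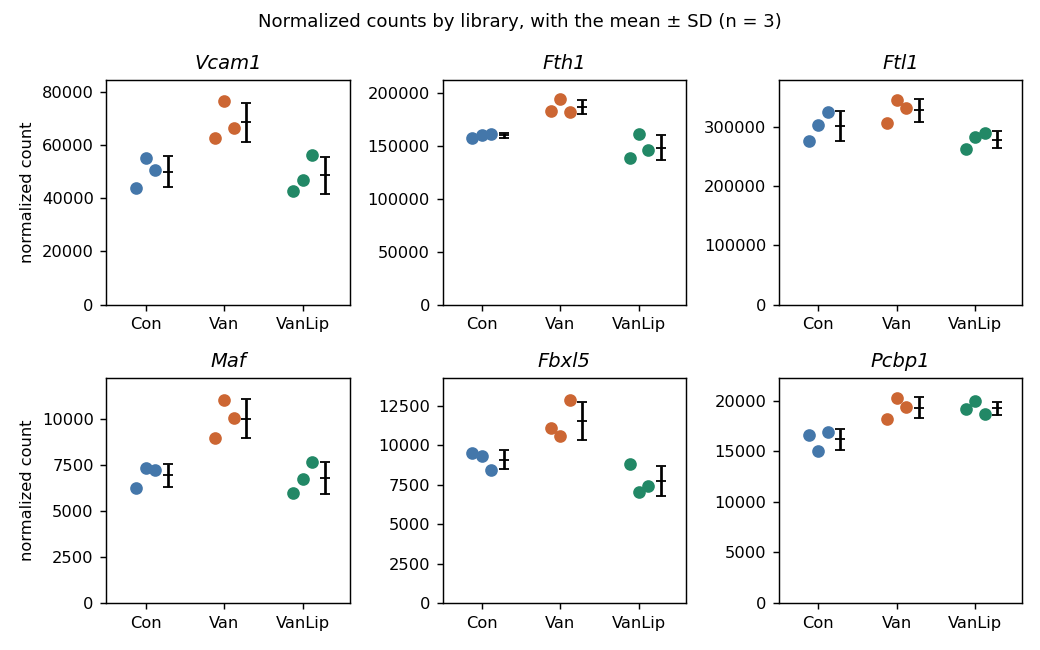
Normalized counts (linear axis from 0) of the 3 called genes and of Maf, Fbxl5 and Pcbp1, a regulator and a pair of iron-handling genes picked after their values were seen. Points are libraries, and bars give the mean ± SD (n = 3). Vcam1, Fth1, Maf and Fbxl5 are highest in all 3 Van libraries, while Pcbp1 is above Con in both Van and VanLip.

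Tfrc (chr16:32608920-32632794), which carries 4 of the elements printed above in its 3′ untranslated region, had normalized counts of 1468, 1302 and 1512 in Con, 1605, 1301 and 873 in Van, and 1237, 1186 and 1532 in VanLip. Van held both the highest and the lowest of the 9 values. Van differed from Con by a log2 of -0.18 (95% interval -0.57 to 0.21, DESeq2 adjusted p = 0.794), and VanLip by -0.11 from Con (-0.50 to 0.27, adjusted p = 0.832) and by 0.07 from Van (-0.32 to 0.45, adjusted p = 0.918). Differences within these intervals, which are not adjusted for the number of genes tested, remain possible with 3 libraries a group.

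Slc11a1 (chr1:74375195-74386062) moves iron and manganese out of the phagosome, and C57BL/6 mice carry a loss-of-function allele of it, so its RNA does not stand for transport. Its normalized counts were 32622, 37192 and 39108 in Con, 42251, 39169 and 36292 in Van, and 36532, 32041 and 30310 in VanLip. VanLip was the lowest on average but overlapped Van. The log2 fold change of VanLip against Van was -0.25 (SE 0.10, DESeq2 adjusted p = 0.094, edgeR adjusted p = 0.165) and passed without VanLip 1 (adjusted p = 0.0132). Van against Con was at 0.11 (adjusted p = 0.717) and VanLip against Con at -0.14 (adjusted p = 0.497).

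Libraries of the same group also differed in the red pulp genes, though how much of the variation this makes up was not measured. Van 2 was the highest of the 9 libraries for 4 of the 6 red pulp genes (Hmox1, Slc40a1, Vcam1 and Cd163) and for 8 of the 11 other red pulp markers, together 70.6%, against 10.6% of all genes tested in Van against Con. It was also highest for Fth1 and Ftl1. VanLip 1 was the lowest library for 5 of the 10 genes and Con 1 for 3. The count by library was added after the values had been seen. Genes higher in Van more often peak in a Van library, so the share of all genes is not an even base.

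None of the 11 other markers (Adgre1, Mrc1, Axl, Mertk, Itgad, C1qa, C1qb, C1qc, Hpgd, Epor and Timd4) was called in any comparison by DESeq2 or edgeR, beside 4.34%, 6.67% and 9.86% of all genes with DESeq2, and 1, 1 and 4 had an unadjusted p under 0.05, beside 14.9%, 18.6% and 21%. Their median log2 fold changes, 0.17, 0.03 and -0.21 in the order of the comparisons above, stand beside 0.16, -0.07 and -0.24 for the 10 genes. Itgad, an integrin subunit of red pulp macrophages, came closest to a call between VanLip and Van, at 18274, 23577 and 19378 in Van and 10434, 14756 and 18541 in VanLip (log2 -0.49, DESeq2 adjusted p = 0.0527, edgeR adjusted p = 0.161). It was named after its values were seen. The summed FPKM of the 11 markers was 1090 to 1290 in Con, 1290 to 1610 in Van and 996 to 1410 in VanLip, ranges that overlap between VanLip and each other group. The part of the number of red pulp macrophages in the Vcam1 difference was not tested.

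As a description of each library, the log2 normalized count of Vcam1 less the mean log2 of Hmox1, Slc40a1, Spic, Cd163 and Cd5l was 1.29 to 1.47 in Con, 1.59 to 1.65 in Van and 1.19 to 1.36 in VanLip. The Van libraries lay above all others, and Con and VanLip overlapped. Vcam1 was singled out after its values were seen, as the gene with the largest differences, so it had to stand apart here, and nothing rests on this ratio.

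**Figure D4:**
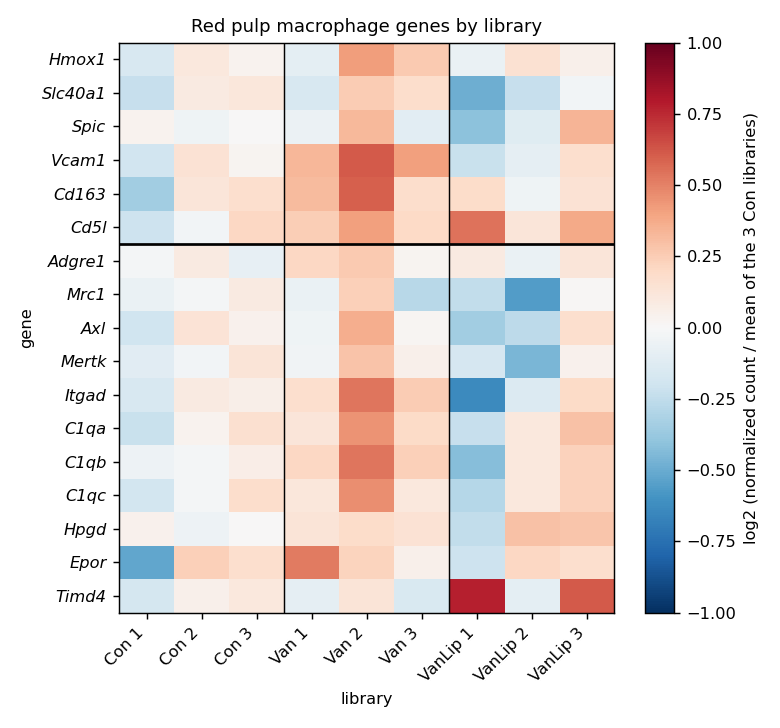
Log2 of the normalized count over the mean of the 3 Con libraries (colour, from -1 to 1) for the 6 red pulp genes above the line and 11 other red pulp markers below it, in each library. Van 2 is the highest library for 12 of the 17 genes, and VanLip 1 is below the Con mean for most genes but above it for Cd5l and Timd4, among others.

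Other genes of heme and iron handling were given as 4 lists, to be read beside the 4.34%, 6.67% and 9.86% of all genes that DESeq2 called in the 3 comparisons and the 1.21%, 1.78% and 5.07% that edgeR called. Of 10 genes for the uptake, transport and breakdown of heme, 0 were called in any comparison by DESeq2 or edgeR, with 1, 0 and 0 at an unadjusted p under 0.05. This list holds Blvrb, the biliverdin reductase one step below heme oxygenase, with a mean normalized count ± SD (n = 3) of 6081 ± 701 in Con, 6205 ± 497 in Van and 5812 ± 726 in VanLip, and Slc48a1, which moves heme out of the phagolysosome, at 11328 ± 411, 11159 ± 1162 and 11513 ± 229. Both genes, taken here as the steps beside Hmox1, overlapped between all groups.

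Of 8 heme synthesis enzymes, 1 was called in each comparison by DESeq2, and 0, 1 and 1 by edgeR. Cpox, the mitochondrial coproporphyrinogen oxidase, was at 1539, 1590 and 1327 in Con, 1886, 2262 and 2044 in Van, and 1735, 1857 and 1967 in VanLip. It was higher in Van than in Con (log2 0.47, SE 0.11, DESeq2 adjusted p = 0.00159, edgeR adjusted p = 0.0511). Fech, which inserts iron into the ring, was at 3003, 3047 and 2964 in Con, 2904, 2945 and 2901 in Van, and 3442, 3668 and 3646 in VanLip, with every VanLip library above the rest. It was higher in VanLip than in Con (log2 0.25, DESeq2 adjusted p = 0.00198, edgeR adjusted p = 0.0463) and than in Van (log2 0.30, DESeq2 adjusted p = 6.94e-05, edgeR adjusted p = 0.0135). The medians of the list were 0.08, 0.29 and 0.16 in the 3 comparisons. Erythroid cells make both enzymes, and the 8 erythroid markers had median log2 differences of 1.79, 2.54 and 0.77 in the same order. The part of erythroid RNA in the Cpox and Fech differences was not tested.

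Of 23 genes for iron uptake, storage and regulation, 18 had an adjusted p, and 2, 1 and 1 were called by DESeq2, and 0, 0 and 1 by edgeR. Fbxl5, which senses iron and marks iron regulatory protein 2 for degradation, was at 9518, 9350 and 8425 in Con, 11075, 10611 and 12913 in Van, and 8839, 7053 and 7398 in VanLip. Its group means followed the order of those of Fth1, higher in Van than in Con (log2 0.34, DESeq2 adjusted p = 0.0475, edgeR adjusted p = 0.149) and lower in VanLip than in Van (log2 -0.57, DESeq2 adjusted p = 1.35e-05, edgeR adjusted p = 0.0132). Pcbp1, a chaperone that brings iron to ferritin, was higher than Con in Van (log2 0.25, DESeq2 adjusted p = 0.0181, edgeR adjusted p = 0.106) and in VanLip (log2 0.25, DESeq2 adjusted p = 0.0138, edgeR adjusted p = 0.0826). The hormone hepcidin (Hamp) and mitochondrial ferritin (Ftmt) were listed at 0 in all 9 libraries.

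Of 12 transcription factors and partners that act on Hmox1 or Spic or in macrophages, 2, 1 and 1 were called by DESeq2, and 0, 0 and 1 by edgeR. Maf, a factor of macrophage differentiation, was at 6238, 7361 and 7208 in Con, 8966, 11052 and 10074 in Van, and 5988, 6732 and 7693 in VanLip. All Van libraries were above the others, the same order as for Vcam1 (Van against Con log2 0.53, DESeq2 adjusted p = 0.000582, edgeR adjusted p = 0.0541, and VanLip against Van log2 -0.56, DESeq2 adjusted p = 8e-05, edgeR adjusted p = 0.0213). Bach2, a repressor related to the heme sensor Bach1, was lower in Van than in Con (log2 -0.66, DESeq2 adjusted p = 0.00344, edgeR adjusted p = 0.0747). Nfe2l2, which encodes the Hmox1 activator NRF2, was lower in VanLip than in Con (log2 -0.41, DESeq2 adjusted p = 0.00299, edgeR adjusted p = 0.0656).

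The genes whose FPKM ran most like the red pulp genes were also sought, as a description over 9 libraries that share 3 groups and differ in depth. On log2(FPKM + 1), with the mean z-score of Hmox1, Slc40a1, Spic, Vcam1, Cd163 and Cd5l as the profile, the highest Pearson correlations among 11700 genes were those of Pms1 (0.971), Snx25 (0.958), Clstn1 (0.956), Pld3 (0.956) and Gdpd1 (0.953). The profile itself ran from -1.18 in Con 1 to 1.55 in Van 2, so the correlations lean on those libraries.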

How the data were processed

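Titles gave each library's group and number. Stranded paired reads were aligned to GRCm38 by the authors with HISAT2 2.2.1, and the authors deposited FPKM values estimated with StringTie 2.1.3. A second deposited table held expected counts, which the authors made from that output with tximport without normalizing them, and which were rounded to whole numbers here. The annotation release was not given in the sources used here, and 25836 of 26108 detected genes matched GENCODE M21, used for positions. Sequences come from its transcripts.

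DESeq2 1.42.0 in R 4.3.3 fitted all 9 libraries together, and its Wald test gave the p-values (two-sided, group as the only term, median-of-ratios size factors, independent filtering at 0.05). Benjamini-Hochberg adjustment ran over all genes tested, with a call at 0.05 or under. One interim fit used DESeq2's default filtering alpha of 0.1 and called the same 10-gene counts. It is kept as an alternative. Other alternatives were edgeR 4.0.16, limma 3.58.1 on quantile-normalized log2(FPKM + 1) or log2(FPKM + 0.1), TMM library sizes, low-value filters, fits of 2 groups only, a replicate block, counts converted to fragments, added ferritin copies and leaving out each library. The tests of DESeq2, edgeR and limma were tested on simulated data. The 1-read size was read from the commonest low count, with a window set after seeing the files. Replicates are separate mice per the labels.

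The 10 genes and all lists were chosen with earlier results of these data known. Named from the heme, iron, regulator and red pulp lists were genes called in any comparison, and from the marker lists the 2 with the highest mean FPKM. Blvrb, Slc48a1, Hamp, Ftmt, Itgad and further marker genes were named after their values were seen, and the genes most like the red pulp profile had a mean FPKM of at least 1. Precision is limited by 3 libraries a group, and the counts by reads that near-identical or overlapping genes can exchange.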

Additional observations from a re-analysis of the deposited data

How the results depend on the processing

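In Van against Con the number of called genes, 2 of the 10, was 0 with edgeR, 1 with limma on log2(FPKM + 1) with or without a filter at a mean FPKM of 1, 0 with limma on log2(FPKM + 0.1), and 0 to 2 when 1 library was left out (0 without Con 1, Con 3 or Van 2). For VanLip against Con, 0 became 1 with TMM library sizes (Cd5l), 1 with a replicate block (Slc40a1) and 0 to 1 without 1 library. For VanLip against Van, 3 became 1, 1 and 0 in the same limma settings and 2 to 4 without 1 library, where Fth1 and Vcam1 were called in all 9 fits. The other settings, including the filtering alpha of 0.1 chosen after seeing the data, left each count within 1.5 times. Same-numbered libraries did not deviate together (correlations of -0.065 to 0.123), so the numbers were not taken as pairs, and with the replicate block the counts were 2, 1 and 4, where Slc40a1 was added in the last 2 (adjusted p = 0.0421 against Con and 0.000366 against Van). Of 576 refitted gene differences, 516 kept direction and call, 30 lost a call, 9 gained one and 21 changed sign. In limma on quantile-normalized FPKM, VanLip against Con changed sign for Fth1 (0.16) and Ftl1 (0.067), and Fth1 in Van against Con rose to 0.46. Before quantile normalization, mean FPKM was lower in VanLip than in Con for Fth1 (1811 and 1925) and for Ftl1 (3082 and 3317). The cause was not tested. The other sign changes came with 1 library left out, over log2 ranges of -0.024 to 0.11 (Hmox1), -0.16 to 0.043 (Vcam1), -0.0455 to 0.19 (Cd163) and -0.26 to 0.13 (Spic) for VanLip against Con, -0.0012 to 0.22 (Slc40a1), -0.080 to 0.14 (Spic) and -0.39 to 0.028 (Tfrc) for Van against Con, and -0.325 to 0.064 (Spic), -0.030 to 0.18 (Cd5l) and -0.14 to 0.28 (Tfrc) for VanLip against Van. None of these was a called difference. The inferred read length could not be fitted as a term because it coincides with VanLip, and a fit with depth as a term was not run.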
